A study of Mus musculus with 34 samples.

Results

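The genes described are 10 that code for proteins of the leukocyte surface or lysosome membrane (Cd53, Cd37, Cd84, Cd48, Evi2a, Evi2b, Ptprc, Cd180, Cd52 and Laptm5), each followed through 4 histone marks in microglia of the mouse hippocampus. They are 10 of 21631 protein-coding genes placed on the mm10 genome. They were picked by hand around the strong losses of H3K9ac at Cd53, Cd84 and Evi2b in these same libraries, so the H3K9ac values below describe the choice and were not tested. The series asked how growth restriction in the womb (FGR) alters the 4 marks H3K4me3, H3K9ac, H3K27ac and H3K9me3 there. Both groups, Ctrl and FGR, carried the Tmem119-tdTomato+/- reporter, a fluorescent tag on a microglial gene, and were sampled 3 weeks after birth, although the label of replicate 4 gives no age. Each mark was profiled in 4 libraries per group by ULI-NChIP-seq, a native chromatin precipitation for small cell numbers. The labels do not say how the restriction was produced, how the cells were isolated, or whether a replicate is an animal or a pool, so every p-value reflects nothing but the spread among these libraries, possibly a technical one. In such bulk libraries, fewer cells carrying a mark and less mark per cell cannot be told apart.

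H3K4me3 marks promoters of active genes, H3K9ac and H3K27ac are acetyl marks found at promoters and enhancers in use, and H3K9me3 marks silent heterochromatin. Microglia are the resident macrophages of the brain and share with other leukocytes a set of surface proteins. Tetraspanins such as Cd53 and Cd37 organise receptors in the membrane, Cd84 and Cd48 belong to the SLAM family of immunoglobulin-like receptors, and Ptprc (CD45) is a tyrosine phosphatase that acts on Src family kinases. Cd180 is a receptor related to Toll-like receptors, Cd52 is a short lipid-anchored glycopeptide, and Laptm5 is a lysosomal membrane protein that promotes the breakdown of immune receptors. Evi2a and Evi2b are transmembrane proteins whose genes sit inside an intron of Nf1.

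The promoters that lost all H3K9ac peaks and those that kept them can be read side by side. Shown are Cd53, Cd84 and Evi2b, which had no H3K9ac peak near either gene end in any FGR library, and Laptm5 and Cd37, which had more than in Ctrl. Each runs from 250 bases before to 50 bases after the RefSeq start (GRCm38.p6, the assembly behind mm10), read 5′ to 3′ on the gene's strand. Capitals mark GAGGAA on either strand, the core shared by binding sites of PU.1 and related ETS factors. The windows are chr3:106790100-106790399 (minus strand) for Cd53, chr1:171839447-171839746 (plus) for Cd84, chr11:79523713-79524012 (minus) for Evi2b, chr4:130913066-130913365 (plus) for Laptm5 and chr7:45238790-45239089 (minus) for Cd37.
Cd53: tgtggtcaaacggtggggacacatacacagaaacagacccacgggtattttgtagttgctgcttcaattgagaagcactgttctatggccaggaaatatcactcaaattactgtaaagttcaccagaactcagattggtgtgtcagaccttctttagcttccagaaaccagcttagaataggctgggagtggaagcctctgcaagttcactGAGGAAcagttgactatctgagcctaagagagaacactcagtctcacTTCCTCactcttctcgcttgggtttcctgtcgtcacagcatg
Cd84: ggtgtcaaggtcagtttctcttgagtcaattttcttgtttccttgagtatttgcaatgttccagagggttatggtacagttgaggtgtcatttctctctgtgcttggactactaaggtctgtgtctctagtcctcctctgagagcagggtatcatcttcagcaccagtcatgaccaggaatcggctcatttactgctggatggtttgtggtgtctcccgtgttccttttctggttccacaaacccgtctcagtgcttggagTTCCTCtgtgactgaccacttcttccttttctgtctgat
Evi2b: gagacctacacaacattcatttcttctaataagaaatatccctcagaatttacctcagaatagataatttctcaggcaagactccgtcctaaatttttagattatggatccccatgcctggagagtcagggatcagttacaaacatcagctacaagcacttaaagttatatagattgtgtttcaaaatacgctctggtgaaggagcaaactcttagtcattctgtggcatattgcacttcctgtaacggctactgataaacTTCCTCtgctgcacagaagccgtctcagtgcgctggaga
Laptm5: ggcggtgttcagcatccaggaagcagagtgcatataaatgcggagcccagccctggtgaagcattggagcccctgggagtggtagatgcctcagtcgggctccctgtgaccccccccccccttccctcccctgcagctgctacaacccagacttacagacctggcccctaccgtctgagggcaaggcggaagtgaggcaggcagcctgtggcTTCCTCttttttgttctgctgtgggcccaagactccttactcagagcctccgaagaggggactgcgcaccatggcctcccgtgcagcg
Cd37: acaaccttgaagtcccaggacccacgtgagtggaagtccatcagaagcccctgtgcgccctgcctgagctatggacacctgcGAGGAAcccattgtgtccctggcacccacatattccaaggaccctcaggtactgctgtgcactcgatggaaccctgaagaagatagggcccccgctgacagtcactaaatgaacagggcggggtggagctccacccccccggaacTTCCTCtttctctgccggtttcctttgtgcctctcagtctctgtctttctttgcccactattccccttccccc

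All 5 promoters shown hold these letters, so their presence did not separate Cd53, Cd84 and Evi2b from Laptm5 and Cd37. This does not extend to the members not shown. Cd48 and Cd180, which had less H3K9ac in FGR, held GAGGAA at none of their listed promoters. Ptprc, which also had less, held it only at the upstream promoter of its pair. Of 10 RefSeq promoters listed for 8 members, 6 (60%) held GAGGAA, against 27.2% of 21045 promoters of protein-coding genes. The longer GAGGAAG, which contains it, was in 4 (40%) against 13.3%. TGTGGTT, a core of RUNX sites, was in none of the 10 against 4.74%, each searched on both strands. All 10 had a ratio of observed to expected CpG under 0.5, as did 45.1% of all promoters, and their median GC content was 45.2% against 56.7%. Ptprc and Cd180 each have a pair of overlapping promoters among these 10. Among 3090 genes outside the members with a ratio under 0.5 at every promoter, H3K9ac was lower in 20.8% and higher in 32.8% (limma, adjusted p under 0.05), against 34.2% and 25.4% of 9353 genes at 0.5 or above. The former had a median of 0.466 kb of H3K9ac near their ends in Ctrl and the latter 1.54 kb, and the part of base composition in the members' values was not tested.

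Some features of the libraries touch every comparison. FGR libraries had a lower background than Ctrl in both acetyl marks and H3K4me3 (0.523 to 1.163 against 2.347 to 3.578 fragments at the peaks' most frequent local level, a relative measure of depth). Peaks of both acetyl marks were shorter in FGR. The median H3K9ac peak was 407 to 460 bp wide in FGR and 634 to 696 bp in Ctrl, and the median H3K27ac peak 314 to 365 bp and 825 to 920 bp. The mark labels also carry a doubt. Across 16783 genes, the libraries labelled FGR H3K4me3 correlated better with those labelled Ctrl H3K9ac (mean Pearson r of 0.883) than with Ctrl H3K4me3 (0.778). Libraries labelled FGR H3K9ac correlated with Ctrl H3K9ac at 0.686 and with Ctrl H3K4me3 at 0.557. The libraries are therefore named by their labels throughout, and whether a label was exchanged was not tested. Summed over 12 microglial marker genes, coverage near the gene ends was 57.1 to 60.6 kb in Ctrl and 32.2 to 36.0 kb in FGR for H3K9ac, and 94.0 to 96.0 kb and 53.0 to 63.2 kb for H3K27ac. For H3K4me3 it was 24.9 to 29.9 kb and 53.3 to 59.8 kb. Summed over 8 neuronal markers it was 0.325 to 0.709 kb and 5.93 to 8.86 kb for H3K9ac, and for H3K27ac 0 in Ctrl and 0 to 0.364 kb in FGR. For H3K4me3 the neuronal sum was 0 to 1.025 kb in Ctrl and 2.52 to 3.22 kb in FGR. Of 6 neuronal markers tested for H3K9ac, 5 were higher in FGR and 0 lower, against 28.5% and 30% of all genes (limma, adjusted p under 0.05). The markers Snap25 and Gad1 were at 0 in both acetyl marks. In H3K9ac, 7 oligodendrocyte lineage markers summed to 1.63 to 2.97 kb and 4.49 to 7.74 kb, and 5 astrocyte markers to 3.82 to 5.75 kb and 3.02 to 6.09 kb. Among tested genes with any Ctrl coverage (13172 for H3K9ac and 11730 for H3K27ac), FGR kept a median of 90.5% of Ctrl length in H3K9ac and 56.8% in H3K27ac. Over all 15605 genes tested for H3K9ac, the median difference (FGR minus Ctrl) was 0.031 kb. The part of other cells or of depth in the results below was not tested except where a value is given.

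H3K9ac split the 10 genes into 4 kinds of pattern. No H3K9ac peak was called near the ends of Cd53, Cd84 and Evi2b in all 4 FGR libraries. Coverage was low at Evi2a, Cd180, Ptprc and Cd48, overlapped with Ctrl at Cd52, and was higher than in Ctrl at Cd37 and Laptm5. The name of the group as genes losing H3K9ac therefore holds for 7 of 10 members. Every FGR library lay below every Ctrl library at those 7, as at 28.8% of 15605 genes tested, and above at the other 2, as at 25.3%. Because H3K9ac chose the genes, nothing is read from these counts. Unless stated otherwise, a value is the length in kb that called peaks cover in the windows reaching 2.5 kb to each side of both gene ends, given for libraries 1 to 4 in order.

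**Figure D1:**
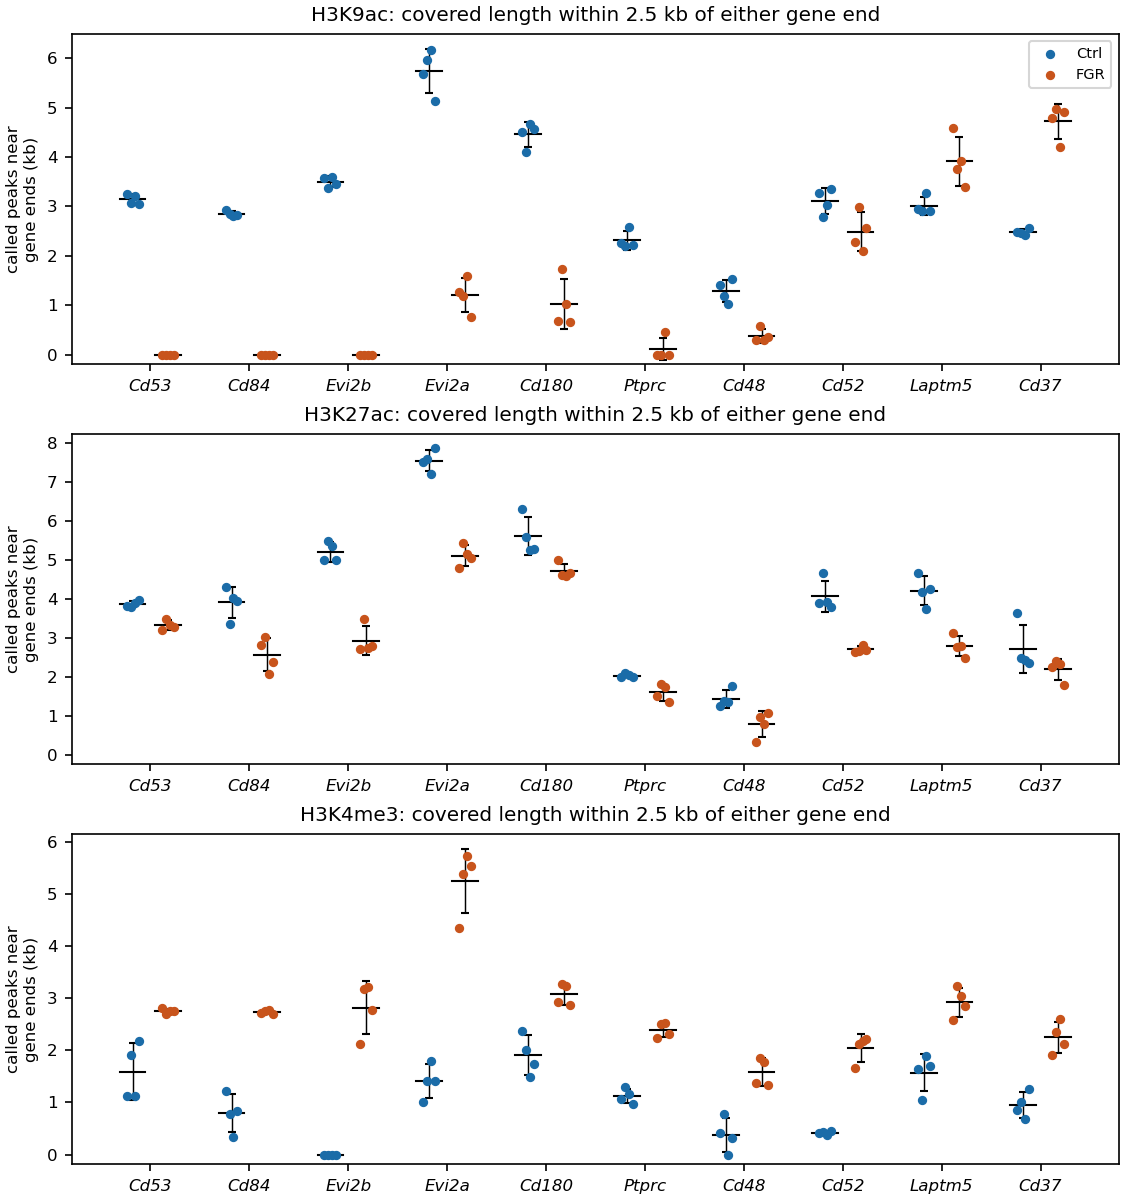
Covered length of called peaks near the gene ends (kb, y axis) of the 10 genes in each library, for H3K9ac, H3K27ac and H3K4me3. Points are libraries, horizontal lines are group means and bars are the SD of 4 libraries. In H3K9ac the FGR points of Cd53, Cd84 and Evi2b lie at 0 while those of Cd37 and Laptm5 lie above Ctrl, and in H3K4me3 all 10 genes have FGR points above Ctrl.

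Among the tetraspanins, Cd53 (chr3:106758861-106790149) and Cd37 (chr7:45233632-45239340) went in opposite directions. Cd53 carried 3.25, 3.06, 3.21 and 3.04 kb of H3K9ac in Ctrl and 0 in each FGR library. Its tallest Ctrl peak was 14.8 to 16.7 times the local background by the authors' fold and ranked in the top 1.51 to 3.02% of its list, so a high peak had no counterpart in FGR. Cd37 carried 2.48, 2.47, 2.42 and 2.56 kb in Ctrl and 4.80, 4.98, 4.20 and 4.90 kb in FGR. The added length at Cd37 lay mostly away from its promoter. Within 2.5 kb of the 5′ end alone Ctrl averaged 2.41 ± 0.16 kb and FGR 2.67 ± 0.0678 kb (SD, n = 4). The Cd37 windows overlap those of Tead2 and Slc6a16, so these peaks cannot be given to one gene.

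The SLAM family members Cd84 (chr1:171839697-171890718) and Cd48 (chr1:171681245-171705258) both had less H3K9ac in FGR. Cd84 carried 2.94, 2.84, 2.80 and 2.82 kb in Ctrl and 0 in each FGR library. Over its whole body, which is 51.0 kb long, Ctrl held 7.46 to 9.35 kb and FGR 0, 0.508, 0.315 and 0 kb. The FGR remainder was 3 short peaks in libraries 2 and 3, with summits 5549, 9739 and 17648 bp inside the gene and authors' folds of 3.62 to 4.82. Cd48, a lipid-anchored ligand of other SLAM-type receptors, carried 1.41, 1.18, 1.029 and 1.52 kb in Ctrl and 0.297, 0.573, 0.288 and 0.347 kb in FGR. FGR libraries 1, 2 and 4 kept a short Cd48 peak 190 to 271 bp past the start, and library 3 had one upstream of the start instead.

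Evi2a (chr11:79526560-79530609) and Evi2b (chr11:79513385-79523762) share windows with each other and with Evi2, so they are not independent. Evi2b carried 3.58, 3.38, 3.60 and 3.44 kb of H3K9ac in Ctrl and 0 in each FGR library. Evi2a carried 5.67, 5.96, 6.16 and 5.14 kb in Ctrl and 1.27, 1.19, 1.59 and 0.752 kb in FGR. At 2 places within Evi2a a peak remained in every FGR library, the taller at folds of 8.44 to 9.94. Omg, another gene of the Nf1 intron, had no peak in any library of these 3 marks. Nf1 itself, whose own ends lie outside these windows, averaged 2.63 ± 0.296 kb in the Ctrl libraries and 1.68 ± 0.315 kb in the FGR libraries (SD, n = 4).

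At Ptprc (chr1:138062859-138175756) the promoter peak was gone from 3 FGR libraries while a distant intragenic peak was called. Near the ends Ctrl held 2.25, 2.19, 2.59 and 2.21 kb and FGR 0, 0, 0.453 and 0 kb. In Ctrl the promoter peak ranked in the top 0.126 to 0.810% of its list, with folds of 17.9 to 20.2. FGR libraries 1, 2 and 4 kept 1 peak each, far inside the gene, with summits 38835 to 39032 bp from the 5′ end and folds of 4.82 to 7.45. Library 3 kept only a weak peak 378 bp past the start, at a fold of 4.50.

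Cd180 (chr13:102693547-102706631) kept a narrow peak at its start. Ctrl held 4.50, 4.10, 4.67 and 4.56 kb and FGR 0.670, 1.74, 1.02 and 0.663 kb near the ends. All 4 FGR libraries had a peak with its summit 157 to 163 bp past the start, and all had another 4973 to 5152 bp inside the gene. The tallest Cd180 peak was 6281 to 9226 bp wide in Ctrl and 403 to 1160 bp wide in FGR.

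Cd52 (chr4:134093538-134095073) and Laptm5 (chr4:130912890-130936148) were not free of H3K9ac in FGR. At Cd52 Ctrl held 3.27, 2.78, 3.02 and 3.36 kb and FGR 2.29, 3.00, 2.09 and 2.56 kb, and the groups overlap. The Cd52 windows overlap those of Crybg2, so peaks of any mark there cannot be given to Cd52 alone. With every library scaled to the lowest background of the mark, the Cd52 values of Ctrl fell to between 1.51 and 3.02 kb. The sign then turned (FGR higher by 0.27 kb). At Laptm5 Ctrl held 2.95, 2.90, 3.27 and 2.90 kb and FGR 4.58, 3.75, 3.91 and 3.40 kb, with every FGR library above Ctrl. Its tallest FGR peak ranked in the top 1.11 to 2.62% of its list. At the 5′ end alone the Laptm5 groups overlap, and the difference was 0.12 kb.

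Scaling every library to the lowest background of the mark keeps or drops whole peaks. It dropped none of the Ctrl H3K9ac peaks near the ends of Cd53, Cd84 and Evi2b. A peak in every Ctrl library and in no FGR library was found at 107 of 15605 genes tested (0.686%), and at 13 of the 4313 genes with a Ctrl mean of 2 kb or more (0.301%), the class to which these 3 belong. All 13 had H3K27ac and H3K4me3 peaks near an end in every FGR library, whether or not they had them in Ctrl. Of the 107, 87 (81.3%) had H3K27ac and 81 (75.7%) had H3K4me3 in every FGR library. The same shares were not counted over all genes tested or over the 4313. Nothing particular to the genes that lost H3K9ac is therefore read from these counts.

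The bases that carried H3K9ac in Ctrl lay partly under peaks of the other marks in FGR, with less H3K27ac and more H3K4me3 than in Ctrl. Bases within 2.5 kb of each gene that at least 3 Ctrl libraries called H3K9ac were taken, and the percent of them under peaks was measured in each library. In FGR, H3K9ac covered a mean of 0% of them at Cd53, 1.47% at Cd84, 0.988% at Evi2b and 7.88% at Ptprc. It covered 19.7% at Cd180, 21.6% at Evi2a, 27.7% at Cd48, 53.3% at Cd52, 74.2% at Cd37 and 80.5% at Laptm5. H3K27ac covered 86.0 ± 8.13% of the same bases in FGR at Cd53, 82.5 ± 6.61% at Cd84, 79.8 ± 5.01% at Evi2b and 78.3 ± 5.67% at Ptprc (SD, n = 4).

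Over the 10 genes the median for H3K27ac was 100% in Ctrl and 81.1% in FGR, with Cd48 lowest in FGR at 58.5 ± 20.8%. H3K4me3 covered more of these bases in FGR at all 10 genes. Its median was 25.3% in Ctrl and 82.2% in FGR, and at Evi2b it was 0 in every Ctrl library and 59.3 ± 7.93% in FGR. Over all 36.8 Mb of bases chosen by the same rule, H3K9ac covered 94.8 ± 1.12% in Ctrl and 51.4 ± 3.00% in FGR, H3K27ac 89.8 ± 0.641% and 64.8 ± 3.123%, and H3K4me3 26.9 ± 1.73% and 70.2 ± 2.32% (SD, n = 4). The bases were chosen on Ctrl H3K9ac, so these shares were not tested.

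**Figure D2:**
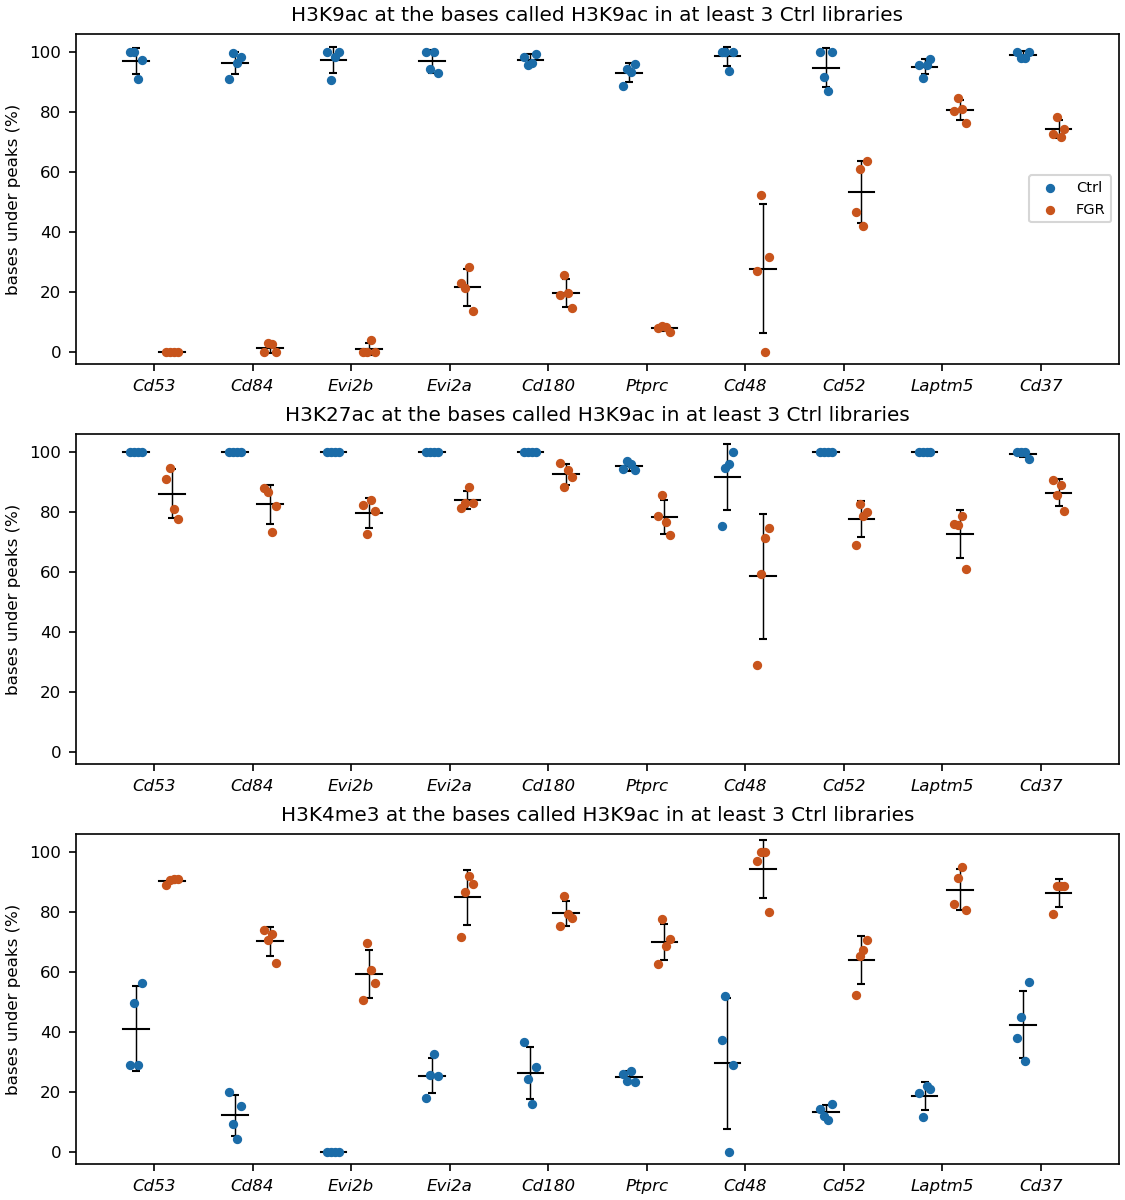
Percent of the bases called H3K9ac in at least 3 Ctrl libraries, within 2.5 kb of each gene, that lie under H3K9ac, H3K27ac or H3K4me3 peaks (y axis). Points are libraries, lines are means and bars the SD of 4. The FGR means of H3K9ac lie at 0 to 1.47% at Cd53, Cd84 and Evi2b, where the FGR means of H3K27ac lie at 79.8 to 86.0%.

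Along the promoters of the 8 genes with a listed start, the marks differed in the same way. In the 100 bp centred 250 bp after the start, peaks covered 100% of bases in Ctrl and 49.3% in FGR for H3K9ac, averaged over genes and libraries. For H3K27ac the figures were 100% and 97.0%, and for H3K4me3 73.0% and 100%. The FGR H3K27ac signal dipped across the start itself, to 64.8% in the 100 bp just before it, between higher values on both sides. That dip was not seen in Ctrl, where coverage there was 100%. FGR H3K27ac peaks were shorter throughout, as given above, and the part of that in the dip was not tested.

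**Figure D3:**
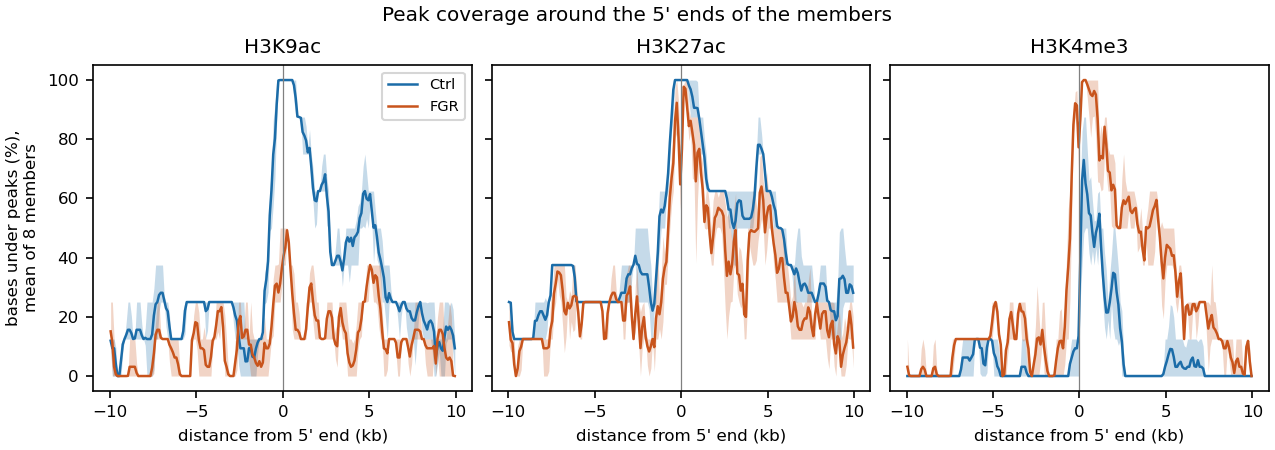
Percent of bases under peaks (y axis), averaged over the 8 members with a listed 5′ end, against distance from that end (kb, x axis; positive is into the gene). Lines are means of 4 libraries and bands span the lowest to the highest library. H3K9ac in FGR stays at or below 50% around the start while H3K27ac and H3K4me3 exceed 90% just after it.

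H3K27ac near the gene ends was lower in FGR at 9 of 10 members, as it was at 81.6% of the 11877 genes tested (limma, adjusted p under 0.05), and the groups were apart, with FGR below, at the same 9 and at 74% of genes. Both counts are near the background. For the members, the Ctrl median was 3.99 kb and the FGR median 2.75 kb, a median difference of -1.12 kb against -0.71 kb over all genes. In proportion the members kept a median of 67.0% of their Ctrl length, and all tested genes with any Ctrl coverage kept 56.8%. Cd53 kept 85.9%, with 3.81, 3.80, 3.90 and 3.97 kb in Ctrl and 3.19, 3.49, 3.33 and 3.29 kb in FGR (difference -0.55 ± 0.10 kb, SE, limma adjusted p = 0.000865). Every FGR library lay below every Ctrl library at Cd53, and the H3K27ac difference of -0.55 kb stands beside one of -3.14 kb in H3K9ac. Cd84 held 4.31, 3.36, 4.03 and 3.94 kb in Ctrl and 2.81, 3.02, 2.07 and 2.37 kb in FGR (limma adjusted p = 0.000747). Evi2b held 5.001, 5.50, 5.36 and 5.001 kb in Ctrl and 2.71, 3.48, 2.73 and 2.80 kb in FGR (limma adjusted p = 1.05e-05). At both genes the groups are apart, and at Evi2b the remaining FGR length was 56.2% of Ctrl.

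Evi2a showed the largest H3K27ac difference of the 10, from 7.55 ± 0.268 to 5.11 ± 0.266 kb (SD, n = 4 each, limma adjusted p = 4.36e-06). Laptm5, which had more H3K9ac length in FGR, fell in H3K27ac from 4.21 ± 0.376 to 2.79 ± 0.265 kb (limma adjusted p = 0.000158), so the acetyl marks differed in opposite directions there. Cd52 fell from 4.07 ± 0.400 to 2.70 ± 0.0839 kb and Cd180 from 5.62 ± 0.485 to 4.72 ± 0.189 kb (limma adjusted p = 0.000114 and 0.00409). Ptprc fell from 2.03 ± 0.0447 to 1.60 ± 0.214 kb and Cd48 from 1.43 ± 0.227 to 0.784 ± 0.334 kb (limma adjusted p = 0.00802 and 0.00756). Cd37 did not pass the test, at 3.64, 2.47, 2.43 and 2.35 kb in Ctrl and 2.26, 2.4, 2.33 and 1.79 kb in FGR (limma adjusted p = 0.102). Ctrl library 1 stood high at Cd37, and the other Ctrl values overlap those of FGR.

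These H3K27ac calls depend on the scale. When all libraries were given the same distribution of covered lengths (quantile normalization), no member was lower and 4 were higher in FGR: Cd53 by 1.14 kb, Cd180 by 1.41 kb, Cd37 by 0.71 kb and Ptprc by 0.54 kb. With every library scaled to the lowest background of the mark, the falls at Cd84 (-0.45 kb) and Laptm5 (-0.39 kb) no longer passed. The absolute fall at the members and the shift of all genes thus cannot be told apart.

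**Figure D4:**
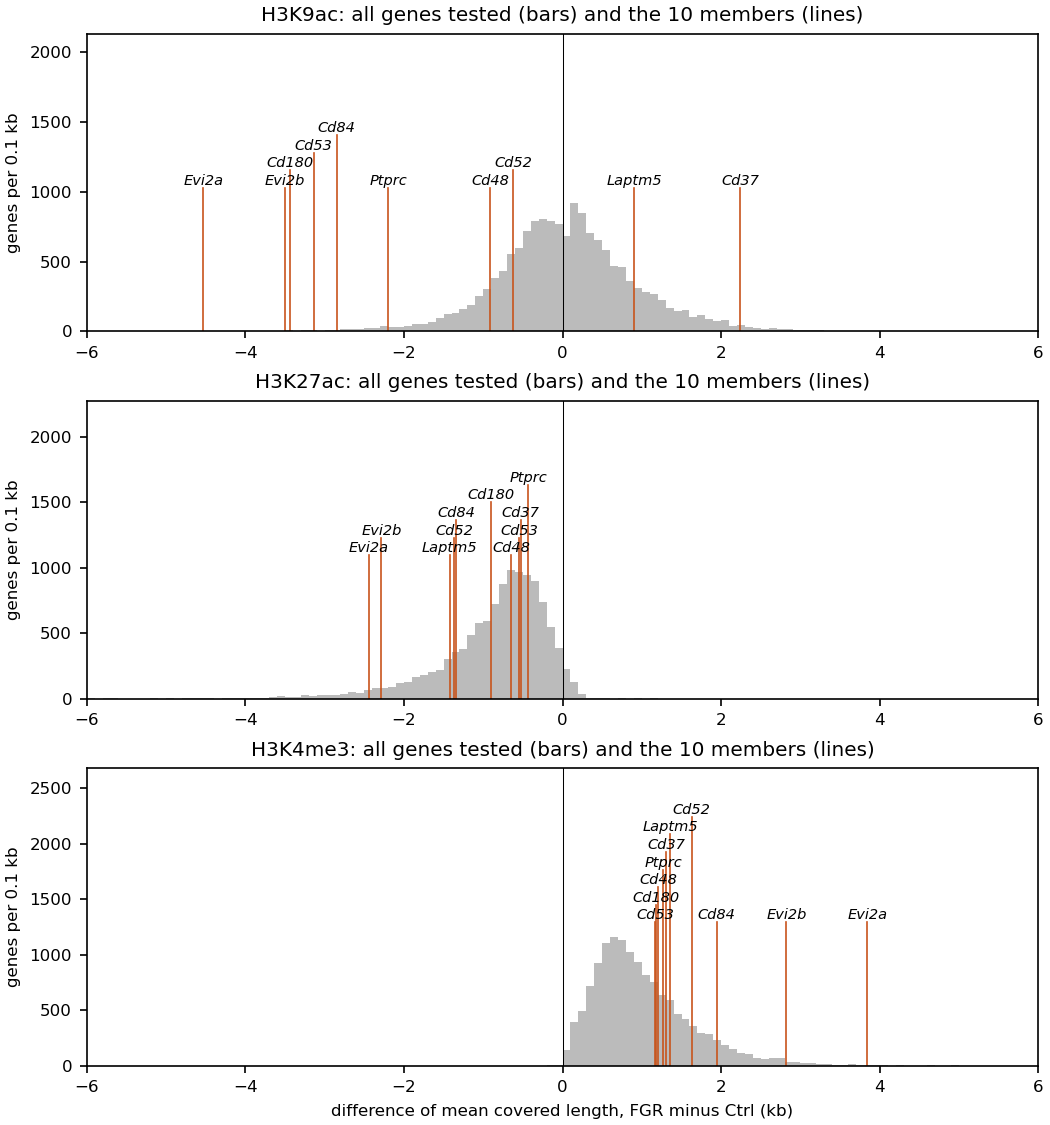
Difference of mean covered length near the gene ends, FGR minus Ctrl (kb, x axis), for all genes tested (grey bars, genes per 0.1 kb, differences beyond the axis counted in the end bars) and the 10 members (lines). In H3K9ac 6 members lie at -2.20 kb or lower and Cd37 lies at 2.24 kb, while in H3K27ac and H3K4me3 all members lie on the side of most genes.

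H3K4me3 near the gene ends was higher in FGR at 10 of 10 members, as at 95.5% of 14043 genes tested (limma, adjusted p under 0.05), with every FGR library above Ctrl at all 10 and at 93% of genes. Those counts too are near the background. For the members, the Ctrl median was 1.04 kb and the FGR median 2.75 kb, a median difference of 1.33 kb against 0.89 kb over all genes. Evi2b went from 0 in every Ctrl library to 2.12, 3.17, 3.23 and 2.77 kb (limma adjusted p = 5.52e-06). Cd84 held 1.23, 0.773, 0.345 and 0.827 kb in Ctrl and 2.72, 2.77, 2.77 and 2.70 kb in FGR (limma adjusted p = 7.51e-06). Cd53 held 1.13, 1.92, 1.12 and 2.18 kb in Ctrl and 2.81, 2.70, 2.76 and 2.77 kb in FGR (limma adjusted p = 0.00122). The groups are apart at all 3 genes, and the FGR values of Cd53 and Cd84 vary little between libraries.

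The other members rose in H3K4me3 by 1.18 kb (Cd180) to 3.84 kb (Evi2a), all with limma adjusted p at or below 0.000331. Among the 9 members with a Ctrl peak Cd52 rose the most in proportion, 4.92-fold, from 0.416 ± 0.0276 to 2.05 ± 0.262 kb (SD, n = 4). Cd48 rose 4.20-fold from 0.377 ± 0.321 kb, with 1 Ctrl library at 0. Ptprc rose 2.13-fold to 2.398 ± 0.142 kb, and Cd37 and Laptm5 2.38-fold and 1.86-fold. These ratios depend on depth. Scaled to the mark's lowest background, Ctrl H3K4me3 was 0 in every library at 6 members (Cd84, Evi2a, Evi2b, Cd37, Cd48 and Cd52). The rise was then 5.06-fold at Cd53, 3.68-fold at Cd180, 3.90-fold at Ptprc and 7.94-fold at Laptm5. After quantile normalization 4 members stayed higher (Cd52, Cd84, Evi2a and Evi2b), and Cd53, Cd180 and Laptm5 turned to -0.33, -0.52 and -0.19 kb without passing the test. With lists cut to equal length, Cd52 turned to -0.31 kb (limma adjusted p = 0.0212).

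H3K9me3 over the gene body was lower in FGR at 4 of the 7 members tested, as at 62.7% of 12489 genes (limma on the broad lists of replicates 1 to 3, adjusted p under 0.05). Cd84 had 37.4, 36.1 and 21.9% of its body under peaks in Ctrl and 1.495, 0 and 0% in FGR (limma adjusted p = 0.00396). Cd53 had 17.2, 9.51 and 10.8% against 0, 0 and 0.761%, and Cd48 23.7, 10.4 and 15.5% against 0 in each (limma adjusted p = 0.00714 and 0.0112). Ptprc had 5.03, 3.16 and 1.74% against 0, a call lost when any 1 FGR library or Ctrl library 2 was left out (limma adjusted p = 0.036, and 0.0546 to 0.115 without them). Evi2b, Cd180 and Laptm5 did not pass, Evi2a was not tested, and Cd37 and Cd52 were at 0. The Ctrl lists were cut at a looser threshold than the FGR lists. At a common −log10 q of 1.05 the Ctrl lists keep 74 to 79 peaks and every member is at 0 in Ctrl, so no fall is measurable at that threshold. The narrow lists of replicate 4 had no peak at any member.

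Genes of the same families and pathways were compared as lists, by count. Over all genes tested (limma, adjusted p under 0.05), H3K9ac was lower in 30% and higher in 28.5%, H3K27ac lower in 81.6% and H3K4me3 higher in 95.5%, and the H3K27ac and H3K4me3 counts of the lists are near those shares. Of 16 other tetraspanins tested for H3K27ac 15 were lower, and all 19 tested for H3K4me3 were higher. For H3K9ac 4 of 19 were lower and 5 higher, with Cd9 at 2.97 ± 0.116 and 2.98 ± 1.10 kb and Cd81 at 5.23 ± 0.219 and 5.47 ± 0.800 kb in Ctrl and FGR. In neither did the H3K9ac difference pass the test. In the SLAM family and its adaptors, H3K9ac was lower at 4 of 7 and higher at none, H3K27ac was lower at 6 of 8 and H3K4me3 higher at 6 of 6. Slamf7, a SLAM receptor, fell in H3K9ac from 2.89 ± 0.194 to 0.630 ± 0.331 kb and in H3K27ac from 4.61 ± 0.206 to 3.24 ± 0.250 kb (limma adjusted p = 2.03e-05 and 4.16e-05). It was named for its small H3K27ac p-value, so its H3K27ac fall only describes the choice.

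In the receptor complexes around Cd180, H3K9ac was lower at 4 of 4 genes, against 30% of all genes. Among the 12 microglial markers H3K9ac was lower at 8 and higher at 2, and among 27 further leukocyte surface genes lower at 14 and higher at 4. Ly86 (MD-1), the partner that Cd180 binds, fell from 3.34 ± 0.206 to 2.58 ± 0.155 kb. Tlr4 fell from 2.21 ± 0.387 to 0.311 ± 0.0452 kb and its partner Ly96 (MD-2) from 2.46 ± 0.0432 to 0.845 ± 0.352 kb. Cd14, which hands lipopolysaccharide to that complex, fell from 3.19 ± 0.474 to 1.83 ± 0.250 kb (SD, n = 4, limma adjusted p for the 4 genes from 5.20e-05 to 0.00126). In H3K27ac 3 of these 4 fell, against 81.6% of all genes, and Ly96 had 2.68 ± 0.118 and 2.43 ± 0.174 kb (limma adjusted p = 0.0761).

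Among 12 kinases, phosphatases and adaptors around CD45, H3K9ac was lower at 3 and higher at 6 (all genes 30% and 28.5%), while H3K27ac was lower at 10 and H3K4me3 higher at 11 of 11. Src, a kinase whose inhibitory phosphate CD45-type phosphatases remove, rose in H3K9ac from 1.75 ± 0.303 to 3.72 ± 0.757 kb, whereas Ptprc itself had less in FGR. Ptpn6, the phosphatase SHP-1, rose from 4.32 ± 0.478 to 6.05 ± 0.542 kb (limma adjusted p = 0.00135 and 0.00146). Both fell in H3K27ac, Src from 1.53 ± 0.153 to 0.265 ± 0.0788 kb and Ptpn6 from 6.51 ± 0.338 to 3.72 ± 0.553 kb (limma adjusted p = 1.05e-05 and 1.89e-05). Src and Ptpn6 were named for having among the 3 smallest H3K27ac p-values of their list, so these H3K27ac falls only describe the choice. The relatives of Laptm5 differed from it: Laptm4a fell in H3K9ac from 2.54 ± 0.241 to 1.40 ± 0.137 kb and Laptm4b from 1.53 ± 0.0424 to 1.12 ± 0.265 kb (limma adjusted p = 0.000193 and 0.0262). Of 30 further leukocyte surface genes, H3K9ac was lower at 14 and higher at 4 of 27 tested (all genes 30% and 28.5%), H3K27ac lower at 26 of 30 (81.6%) and H3K4me3 higher at 28 of 29 (95.5%).

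The genes most like Cd53 were sought over the 24 libraries of the 3 narrow marks by Pearson r, given as a description since libraries of a group share mark and depth. Outside the members the closest were Bcl2a1b (0.970), Il18 (0.965), Ifit3b (0.962), Hpgds (0.958) and Chd2 (0.958). Bcl2a1b, an anti-apoptotic BCL2 relative, averaged 4.34 kb of H3K9ac in Ctrl against 0.243 kb in FGR, with H3K27ac of 6.05 and 4.95 kb, and H3K4me3 of 2.49 and 4.15 kb. Il18, an inflammatory cytokine, had H3K9ac of 3.54 and 0.607 kb. Among the members Cd84 (0.939), Cd180 (0.923), Evi2a (0.908), Evi2b (0.894) and Ptprc (0.852) were closest to Cd53, Cd48 (0.698) and Cd52 (0.504) less so, and Laptm5 (0.060) and Cd37 (-0.444) were not alike.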

How the data were processed

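The deposited files were 32 lists of called peaks, 1 per library. Per the submitters' processing notes, the tools were MACS2 2.2.7.1, DiffBind 3.12.0, Bowtie2 2.4.5, Trim Galore 0.6.5 and SAMtools 1.3.1, on mm10. The sources used here do not give the caller's options. Each deposited peak carries the authors' fold enrichment (a ratio), −log10 p-value and −log10 q-value and a whole-number score, which served to describe, rank and filter the peaks within each list. Lists were narrow except H3K9me3 replicates 1 to 3, which were broad. No counts came with them, so sequencing depth is unknown. A relative depth was solved from each peak's fold and −log10 p as the local background. For the depth-matched alternative, peaks of every library were scaled to the lowest background among the mark's libraries, which was that of an FGR library. Peaks that then passed a common p threshold were kept, so FGR lists were thinned as well.

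Covered length per gene was the kb of peaks within 2.5 kb of either end of 21631 protein-coding genes (RefSeq, GRCm38.p6, chromosomes 1 to 19 and X). A gene entered a test if at least 2 libraries had a peak in its window. Groups were compared with limma 3.58.1 (R 4.3.3; lmFit and eBayes, two-sided) and Benjamini-Hochberg adjustment over all genes tested, threshold 0.05, after tests on simulated data. Every adjusted p is from this fit. Peaks called exactly alike in a pair of replicates came to 0.544% of a list at most, and replicates were counted separately. Other windows, thresholds, list lengths, normalizations, a replicate block and leaving out each library were tried. Genes named from a list were those with the 3 smallest H3K27ac p-values, or all genes of lists of 5 or fewer. From lists not described gene by gene, only counts are given. The members and lists were chosen with earlier results of these data known. The RefSeq promoter table matched 8 of the 10 members, all but Cd52 and Evi2a. The input libraries were not used here.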

Additional observations from a re-analysis of the deposited data

Results flagged for a closer look

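In 60 groups of 4 libraries (10 genes, 3 marks, both conditions), 7 held a library whose gap to its nearest neighbour was large beside the range of the group, where chance gives about 1 in 20. For H3K9ac these were Ptprc in Ctrl library 3, at 2.586 kb near the gene ends, and in FGR library 3, at 0.453 kb while the other FGR libraries were at 0. The third was Laptm5 in Ctrl library 3, at 3.274 kb, still below every FGR library. For H3K27ac they were Cd37 in Ctrl library 1 at 3.641 kb, Cd52 in Ctrl library 2 at 4.666 kb and Evi2b in FGR library 2 at 3.477 kb. For H3K4me3 it was Cd52 in FGR library 1 at 1.657 kb, below the other FGR libraries and above every Ctrl library. Leaving out single libraries changed none of the limma calls of the members for H3K27ac or H3K4me3.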

How the results depend on the processing

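Quantile normalization changed the most. Under it H3K4me3 was higher at 2220 genes and 4 members and lower at 3399 genes, with Cd53 at -0.33, Cd180 at -0.52 and Laptm5 at -0.19 kb. H3K27ac was then lower at 1343 genes and 0 members and higher at 1487 genes and 4 members, with Cd53 at 1.14, Cd84 at 0.18, Evi2a at 0.24, Cd37 at 0.71, Cd48 at 0.047, Cd52 at 0.21, Cd180 at 1.41, Ptprc at 0.54 and Laptm5 at 0.20 kb. Genes with lower H3K4me3, 0 as reported, numbered 2 with a window of 5 kb, 3 over the gene body, 1 at the 5′ end only and 170 with lists of equal length, where 1 member, Cd52, was lower (-0.31 kb). They numbered 0 to 1 with a library left out. Genes with higher H3K27ac, 23 as reported, numbered 9 at the 5′ end only, 6 with lists of equal length, 203 depth-matched and 9 to 27 with a library left out. Depth-matched, the H3K27ac falls at Cd84 (-0.45 kb) and Laptm5 (-0.39 kb) no longer passed. For H3K9me3 a common q threshold left 5 genes and 0 members lower and 879 genes higher, against 7826, 4 and 15. With a library left out 4905 to 9690 genes and 3 to 5 members were lower. The difference between the groups in the members' median H3K9ac length, -2.36 kb, was -1.25 kb with a window of 1 kb, -3.80 with 5 kb, -4.06 over the body, -2.75 at the 5′ end only and -2.44 to -2.31 with a library left out. Cd52 turned to 0.038 kb over the body and 0.27 kb depth-matched. On bases called in all 4 Ctrl libraries, the members' median was 29.0% for Ctrl H3K4me3, 100% for Ctrl H3K9ac and 89.3% for FGR H3K27ac, and with the stricter peak threshold 21.7% for Ctrl H3K4me3. The cause of these changes was not tested.

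The labels do not say whether replicate numbers pair the libraries. Deviations of libraries sharing a number correlated at -0.021 to 0.034, which cannot settle whether they share an origin. With the replicate block, H3K27ac was lower at 9413 genes and 9 members, H3K4me3 higher at 13202 genes and 10 members, H3K9ac lower at 4422 and higher at 4315 genes, and H3K9me3 lower at 5708 genes and 3 members, Ptprc being the member lost. Peak lists without read counts limit all values to what passed the caller's threshold: a length of 0 means that no peak was called, not that the mark was absent.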
